A study of Homo sapiens with 2 samples.

Results

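The genes described are 10 genes of the epithelial-mesenchymal transition (EMT), chosen by name from the 56544 gene names in the expression table, with entries of the same name summed. They comprise 6 transcription factors (ZEB1, ZEB2, SNAI1, SNAI2, TWIST1 and TWIST2) and 4 markers of cell state (VIM, CDH1, CDH2 and EPCAM), and each stood on 1 entry. The RNA came from HGC-27, a cell line established from a human gastric cancer of undifferentiated type, kept in RPMI medium with serum. The Ctrl library is from cells that received a control peptide and the SOS library from cells that received the test peptide, named SOS in the titles and SHAP in the name of the series, each in PDPA micelles for 48 h. With 1 library a group, nothing could be tested or checked against replicates, and each value describes these 2 libraries of 1 line. Levels are in FPKM (fragments per kilobase of transcript, scaled by library size), and the sequencing depth is unknown. Directions rest on the column names, and the log2 ratio in the authors' table has the opposite sign: either it was taken as Ctrl over SOS, or the names were swapped, which would turn all directions given here.

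EMT is the passage of cells from an epithelial state, with adherens and tight junctions and keratin filaments, to a mesenchymal state, with loose contacts, vimentin filaments and a fibrillar matrix. The ZEB, SNAI and TWIST factors bind E-box sequences and repress epithelial genes such as CDH1, while the miRNAs of the miR-200 family hold ZEB1 and ZEB2 low in epithelial cells and are themselves repressed by them. In gastric cancer, loss of E-cadherin is a hallmark of diffuse, poorly cohesive tumours.

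Of the markers of cell state among the members, only VIM reached an FPKM of 1 in either library. VIM, which encodes the intermediate filament protein vimentin, was among the most abundant transcripts. CDH1, EPCAM and the keratin genes were at or near 0, and so was CDH2, a mesenchymal marker. Among the members with an FPKM of at least 1, ZEB1 and ZEB2 differed most between the libraries: both were higher in SOS, by 1.85-fold and 1.70-fold. SNAI2 and TWIST1 were higher by smaller amounts, and SNAI1 and VIM differed little, in a direction that depended on the scaling. Of the 10 members, 6 reached an FPKM of 1 in Ctrl or SOS and entered the comparison with 14288 genes. The others, TWIST2, CDH1, CDH2 and EPCAM, were under 1 in both libraries.

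**Figure D1:**
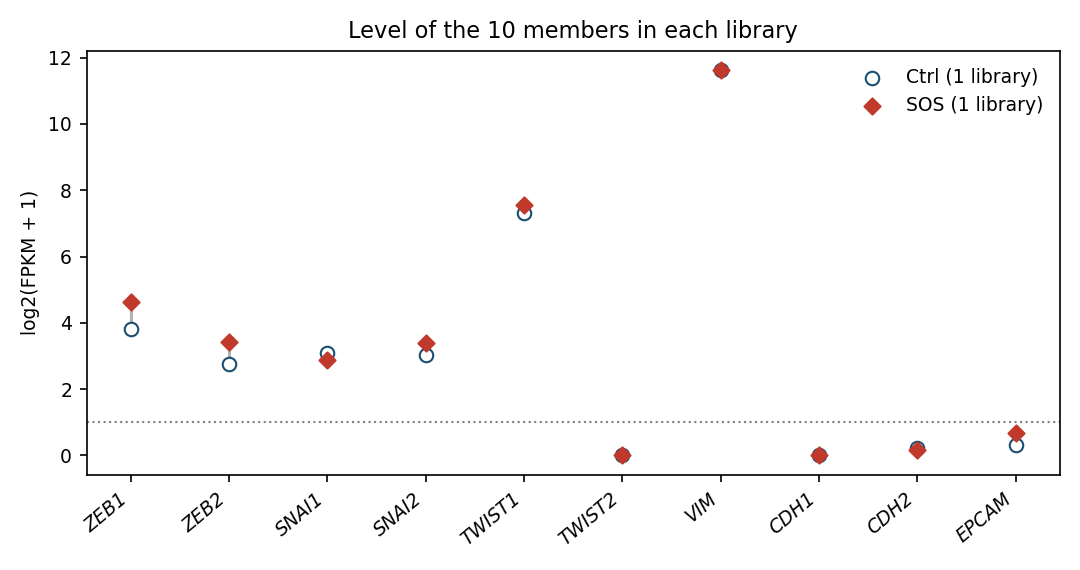
Level of each of the 10 genes as log2(FPKM + 1) in the Ctrl library (open circles) and the SOS library (red diamonds), with grey lines joining the pair and a dotted line at an FPKM of 1. VIM and TWIST1 lie far above the others, the ZEB genes show the widest gaps, and TWIST2, CDH1, CDH2 and EPCAM lie below the dotted line.

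The size of a difference was taken as log2((SOS FPKM + 1)/(Ctrl FPKM + 1)), which understates it at low level, and a gene was counted as past the size rule at an absolute value of at least 1. None of the 6 tested members was past it, where 5.39% of all tested genes were: 3.74% were higher by that much and 1.64% were lower (535 and 235 genes, 69.5% of them higher). With SOS scaled to the sum of Ctrl these counts were 862 and 162 (84.2% higher), and the median of all tested genes moved from -0.05 to 0.15. The ratio also depended on level: its median was 0.22 in the lowest quintile of genes by mean level and -0.34 in the highest, with 45.8% of all tested genes above 0. The share of summed FPKM in mitochondrially encoded genes was 10.2% in Ctrl and 18.0% in SOS. Its part in the differences was not tested. The authors' deposited table marks 1097 of its 58206 usable entries as significant (1.88%), and none of the 10 members carries that mark. Marked entries all have an absolute log2 ratio of at least 1 in the authors' deposited table besides an adjusted p under 0.001. In the authors' deposited table the adjusted p was listed as 0 for ZEB1, ZEB2, TWIST1 and VIM, 4.56e-09 for SNAI2 and 0.664 for SNAI1, so the first 5 of these lack the mark on size. The test behind it was not named in the sources used here, and with 1 library a group it compares libraries, not conditions.

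**Figure D2:**
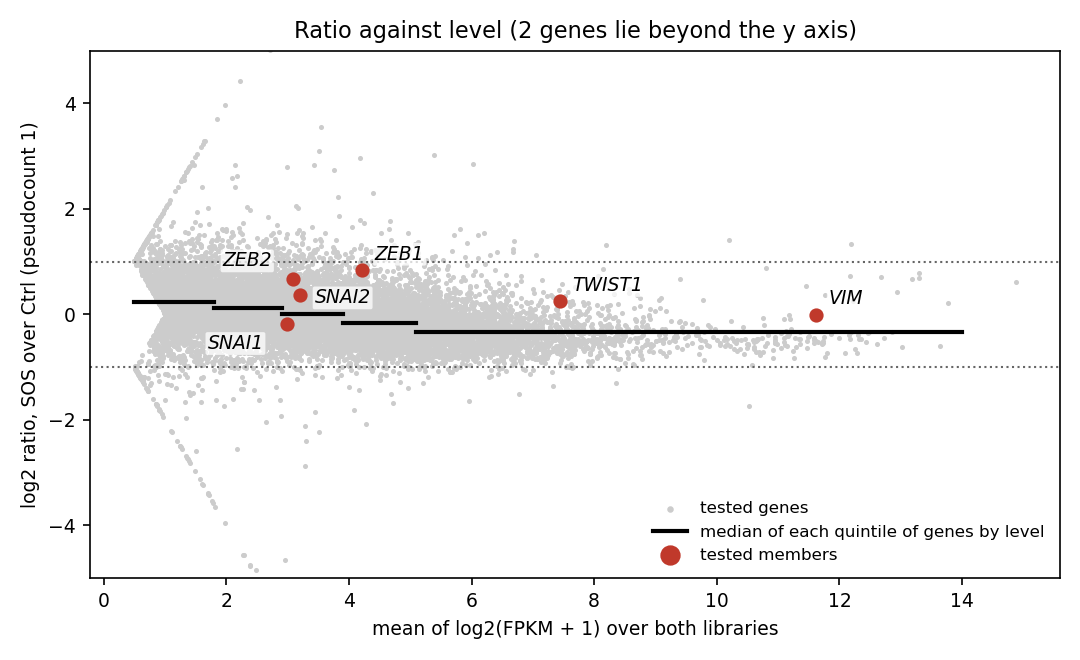
Log2 ratio of SOS over Ctrl against mean level for the tested genes (grey), with the median of each quintile of genes by level (black bars), the size rule (dotted lines) and the 6 tested members (red). ZEB1, ZEB2 and SNAI2 lie above the median of their level, TWIST1 and VIM lie above the median of the most abundant quintile, and SNAI1 lies below its own.

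ZEB1 is a repressor with zinc fingers at both ends of the protein and lies on chromosome 10 (31318495 to 31529814, GRCh38, plus strand). Its FPKM was 12.9 in Ctrl and 23.9 in SOS, a log2 ratio of 0.84. That placed it 820th from the top among 14288 genes, above 94.3% of them and above 97.7% of the genes in its own quintile of level. It passed the size rule when SOS was scaled to the sum of Ctrl (1.06), and from the authors' deposited table, with the log2 ratio turned to SOS over Ctrl and its median offset removed, it came to 0.80. The paralogue ZEB2, on chromosome 2 (144364364 to 144524583, minus strand), was at 5.77 and 9.78, a log2 ratio of 0.67 that lay above 92.3% of the genes in its quintile of level. Summed, the ZEB pair stood at 18.7 in Ctrl and 33.7 in SOS, a 1.80-fold difference. The balance within the pair hardly moved, with ZEB1 at 2.24 times the level of ZEB2 in Ctrl and 2.45 times in SOS. Neither direction turned under any of the 9 alternatives of scaling, pseudocount, filter, entry or ratio. Most of these could not have turned it, because a pseudocount, filter or entry rule cannot change the sign here. Each scaling multiplied SOS by more than 1 (1.04, 1.17 or 1.28), which can only raise a positive ratio. The authors' ratio alone could have turned it, and it gave 0.80 for ZEB1 and 0.53 for ZEB2. Removal of the offset raised these values by 0.152. As deposited, with Ctrl over SOS, the ratios were -0.64 and -0.37.

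The antisense neighbours of the ZEB genes were followed too. ZEB1-AS1, which starts head to head with ZEB1, was at 12.0 and 13.4, a log2 ratio of 0.15 against 0.84 for ZEB1. ZEB2-AS1, under an FPKM of 1 in both libraries, was listed at 0 in Ctrl and at 0.558 in SOS. In the GENCODE annotation the exons of ZEB1-AS1 share 366 bases with those of ZEB1, and those of ZEB2-AS1 share 1299 bases with those of ZEB2. Whether the libraries kept strand was not given in the sources used here, so reads from these overlaps cannot be told apart.

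The miR-200 miRNAs are the known post-transcriptional brake on both ZEB genes. They are shown because their seed (bases 2 to 8, in capitals) sorts them into a pair of groups that differ in a single seed base.
hsa-miR-200b-3p: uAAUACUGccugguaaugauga
hsa-miR-200c-3p: uAAUACUGccggguaaugaugga
hsa-miR-429: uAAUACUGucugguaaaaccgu
hsa-miR-200a-3p: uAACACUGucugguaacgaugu
hsa-miR-141-3p: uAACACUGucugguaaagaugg
These sequences are from RefSeq (GRCh38.p14). The first 3 share the seed AAUACUG and the other 2 share AACACUG. The genes of all 5 were listed at 0 in both libraries, as was MIR200CHG, the spliced host transcript of miR-200c and miR-141. Mature miRNAs are not measured by sequencing of long RNA, so these entries concern the gene loci and the host transcript.

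The longest annotated 3' UTR of ZEB1 (2549 bases, GENCODE release 29) holds 6 matches to the first seed group and 3 to the second. That of ZEB2 (5370 bases) holds 5 and 4. With 9 matches each, they are among 6 of 19133 protein-coding genes with as many, where 28.2% of genes have at least 1. Per kilobase ZEB1 has 3.53 matches and ZEB2 has 1.68, against 0.252 over all 3' UTRs. The first match of the first group in each is shown with its flanks, with the seed match in capitals.
ZEB1 site: tgttttatcttatCAGTATTatcactc
ZEB2 site: cactaccatacatCAGTATTtttatta
SNAI2 has 1 match, and the other 7 members have none. These matches describe the sequence and do not show that a site was in use.

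The promoters of the ZEB genes are shown because both genes were higher together and because these factors bind the E-box CAGGTG, which reads CACCTG on the other strand. The window runs from 250 bases before to 50 after a RefSeq start site, and E-boxes are in capitals. Of 7 ZEB1 windows the one printed has more starts of annotated coding transcripts within 50 bases of its start site (5) than any other.
ZEB1, chr10:31318966-31319265 (GRCh38.p14, plus strand): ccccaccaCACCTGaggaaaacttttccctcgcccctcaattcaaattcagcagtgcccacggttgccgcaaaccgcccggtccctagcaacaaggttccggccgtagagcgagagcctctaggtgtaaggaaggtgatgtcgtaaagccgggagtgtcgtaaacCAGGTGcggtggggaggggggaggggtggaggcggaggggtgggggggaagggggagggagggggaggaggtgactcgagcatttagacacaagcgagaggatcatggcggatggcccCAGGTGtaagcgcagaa
ZEB2, chr2:144520070-144520369 (GRCh38.p14, minus strand): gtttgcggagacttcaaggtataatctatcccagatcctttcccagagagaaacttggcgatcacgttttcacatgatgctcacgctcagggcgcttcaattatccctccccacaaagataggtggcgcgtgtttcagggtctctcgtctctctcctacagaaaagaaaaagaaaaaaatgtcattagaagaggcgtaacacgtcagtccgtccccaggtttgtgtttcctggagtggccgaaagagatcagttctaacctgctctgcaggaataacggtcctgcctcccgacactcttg
The ZEB1 window holds 3 E-boxes, at -242, -85 and 33 bases from the start site, and the ZEB2 window holds none. Over all 35116 windows, 20.6% hold at least 1 E-box and 0.635% hold 3 or more. A promoter entry was found for 5 of the 10 members (ZEB1, ZEB2, TWIST2, VIM and CDH2). Among these only ZEB1 has a window with an E-box, in 2 of its 7 windows.

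SNAI1 and SNAI2 encode the zinc finger repressors Snail and Slug. SNAI1 (chromosome 20, 49982999 to 49988886) was at 7.43 in Ctrl and 6.42 in SOS, a log2 ratio of -0.18, which turned to 0.013 with SOS scaled to the sum of Ctrl. SNAI2 (chromosome 8, 48917604 to 48921740) was at 7.11 and 9.45, a log2 ratio of 0.36. From the authors' deposited table, turned to SOS over Ctrl and with the offset removed, its ratio was 0.46. The level of the pair together was 14.5 and 15.9, and the share of SNAI1 in it was 51.1% in Ctrl and 40.5% in SOS. The pseudogene SNAI1P1 was listed at 0 in both libraries. Set beside the ZEB genes, the summed level of ZEB1 and ZEB2 was 1.29 times that of SNAI1 and SNAI2 in Ctrl and 2.12 times in SOS.

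TWIST1, a basic helix-loop-helix factor of the mesoderm, held most of the factor transcripts in both libraries. It was at 158 in Ctrl and 188 in SOS (chromosome 7, 19020991 to 19117672), a log2 ratio of 0.25, and made up 82.6% and 79.1% of the summed FPKM of the 6 factors. Among genes of the most abundant quintile, where ratios were mostly below 0, it lay above 91.7%. From the authors' deposited table, turned and with the offset removed, its ratio was 0.39. TWIST2, the close paralogue, was listed at 0 in both libraries. The order of the factors by level was TWIST1, ZEB1, SNAI1, SNAI2 and ZEB2 in Ctrl, and TWIST1, ZEB1, ZEB2, SNAI2 and SNAI1 in SOS. With no replicates, the error of every difference between neighbours in that order is unknown.

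VIM (chromosome 10, 17228259 to 17237593) was at 3161 in Ctrl and 3140.5 in SOS, the 47th and 32nd most abundant of all gene names. Its log2 ratio was -0.0092 as deposited, 0.22 with SOS scaled to the sum of Ctrl and -0.07 from the authors' deposited table after turning and removal of the offset. Its antisense partner VIM-AS1, which starts inside the vimentin gene and runs the other way (17214239 to 17229985, minus strand), was at 88.3 in Ctrl and 195 in SOS. That is 2.21-fold higher, a log2 ratio of 1.13, past the size rule. VIM was 35.8 times the level of VIM-AS1 in Ctrl and 16.1 times in SOS. The exons of the pair share 641 bases, which are 32.2% of the exonic bases of VIM-AS1, and with strand unknown the reads there cannot be told apart.

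**Figure D3:**
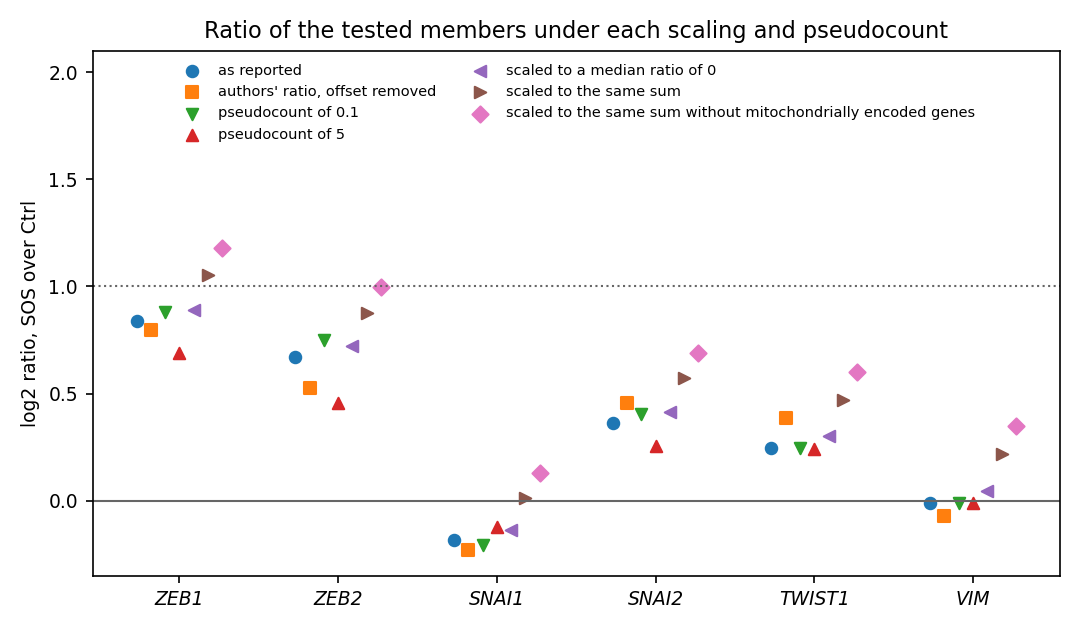
Log2 ratio of SOS over Ctrl for the 6 tested members under each scaling, pseudocount and ratio that can change it (symbols), with the size rule as a dotted line. ZEB1, ZEB2, SNAI2 and TWIST1 lie above 0 under all of them, while SNAI1 and VIM lie on both sides of 0. Each scaling raises SOS and a pseudocount cannot change a sign, so only the authors' ratio could have turned a positive ratio.

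The cadherins and EPCAM were too scarce for a comparison. CDH1, which encodes E-cadherin, the adhesion molecule of epithelial adherens junctions (chromosome 16, 68737225 to 68835548), was listed at 0 in Ctrl and at 0.016 in SOS. CDH2, which encodes N-cadherin, the usual mesenchymal counterpart (chromosome 18, 27950966 to 28177446), was at 0.156 and 0.123. Transcripts of the epithelial cadherin and of the mesenchymal one were thus both at or near 0 in these libraries, and protein was not measured. EPCAM, an adhesion molecule of epithelial cells (chromosome 2, 47345158 to 47387601), was at 0.238 and 0.599. In the authors' deposited table the log2 ratio of EPCAM, -0.74, is within 0.0006 of that of 3 to 5, and that of CDH2, 0.78, within 0.0006 of that of 12 to 7. Few reads would give such ratios, as would more reads in the same proportions. With a pseudocount of 0.1 the ratio of EPCAM was 1.05.

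The label of a gastric cancer line was checked against markers. Of 6 epithelial markers only CLDN7, a tight junction claudin, reached an FPKM of 1, at 4.64 in Ctrl and 6.96 in SOS. KRT8, KRT18 and KRT19, the keratins of simple epithelia, summed to 0.943 and 0.534. Of 8 mesenchymal and fibroblast markers 7 were tested, with CDH2 near 0. Of the 7, 5 were above 0 (all tested genes, 45.8%). VIM and THY1 were below it as deposited, THY1 at 75.1 in Ctrl and 54.9 in SOS. The 8 markers summed to 3587 in Ctrl and 3771 in SOS, of which VIM alone made up 3161 and 3140.5. PDGFRA, a growth factor receptor of fibroblasts, was at 4.24 in Ctrl and 8.09 in SOS, and PDGFRB at 2.51 and 5.07, both higher beside ZEB1 and ZEB2. Their part in that difference was not tested. The 4 endothelial markers summed to 0.009 and 0.016. PTPRC, the pan-leukocyte gene, was at 0.018 and 0.041, and CD3E, a T cell gene, was listed at 0 in both libraries.

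Of 12 other EMT transcription factors 6 were tested, with 3 above 0 (all tested genes, 45.8%). None was past the size rule, and their median was 0.01. PRRX1, a homeobox factor of mesenchyme, was at 87.6 and 78.1. TCF3, which encodes the E proteins that pair with TWIST1, was at 248 and 202, and its relative TCF4 at 15.7 and 20.3. TBX3 was at 9.34 and 14.04, and YBX1, an abundant RNA-binding protein, at 1282 and 876. The ID proteins, which sequester E proteins, were split, with ID1 at 26.0 and 29.4, ID2 at 16.9 and 19.4, ID3 at 37.3 and 23.6, and ID4 listed at 0.

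Corepressors through which ZEB and SNAI proteins act were mostly slightly lower as deposited. All 14 were tested, 12 of them were below 0 (7 with SOS scaled to the sum of Ctrl) and none was past the size rule. Their median was -0.19 against -0.05 for all tested genes. Of the 14, 5 lie in the fourth and 6 in the highest quintile of level, where the medians of all genes were -0.16 and -0.34. In these quintiles 33.9% and 18.1% of all genes were above 0, against 45.8% of all tested genes. CTBP1 and CTBP2, the partners of ZEB proteins, were at 81.6 and 31.0 in Ctrl and at 73.4 and 29.6 in SOS. KDM1A, the histone demethylase bound by SNAI1, was at 61.6 and 48.4, and EZH2, the methyltransferase of Polycomb, at 43.6 and 31.2. SMARCA4 was at 152 and 113, and the Polycomb genes BMI1 and SUZ12 ran the other way, at 25.7 and 35.1 and at 12.2 and 14.6.

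Of the genes that control the turnover of SNAI and TWIST proteins, 12 of 13 were tested, with 9 below 0 (6 with SOS scaled to the sum of Ctrl) and a median of -0.22. Of the 12, 4 lie in the fourth quintile of level and 3 in the highest, where 33.9% and 18.1% of all genes were above 0. Over all tested genes 45.8% were above 0. This list includes PPA2, a mitochondrial pyrophosphatase that is not known for such a role. Without it 8 of 11 were below 0. FBXO45, a ubiquitin ligase subunit, was at 8.79 and 5.34, the kinase subunit CSNK2A1 at 93.3 and 63.1, and COPS2, a signalosome subunit, at 41.4 and 49.2. GSK3B, the kinase that marks SNAI1 for degradation, was at 12.9 and 9.49 by FPKM, a log2 ratio of -0.41, but came to 0.07 from the authors' deposited table after turning and removal of the offset.

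Of 32 other mesenchymal genes 27 were tested, with 20 above 0 (all tested genes, 45.8%) and a median of 0.40. Past the size rule were 3 upward and 1 downward (all tested genes, 3.74% and 1.64%). LOX, which crosslinks collagen, was at 17.3 and 52.2, COL5A1 at 22.2 and 51.2, and POSTN, a matrix protein, at 28.0 and 61.3. ACTA2, the smooth muscle actin gene, was past the size rule downward, at 20.2 and 8.24, and TAGLN, another contractile gene, was at 4.14 and 1.69. TAGLN was closer between libraries by the authors' deposited table, at -0.38 after turning and removal of the offset, against -0.93 by FPKM. THY1 was at 75.1 and 54.9, and CDH11 and TGFBI were listed at 0. CALD1, a contractile gene named after its values were seen, was at 22.2 and 27.6, so the contractile genes of the list did not share a direction. The genes past the size rule were named for their direction, which is no result about matrix genes. Of the 27, 14 lie in the highest quintile of level, where the median of all genes was -0.34.

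Among 30 epithelial genes other than the members, 15 were tested, 11 of them above 0 with a median of 0.14. Of the 15, 5 lie in the lowest and 7 in the next quintile of level, where the medians of all genes were 0.22 and 0.12. In these quintiles 66.3% and 60.9% of all genes were above 0, against 45.8% of all tested genes. Better expressed members, named after their values were seen, included the desmosomal cadherin DSG2 at 18.5 and 19.4, the tight junction scaffold TJP1 at 14.2 and 14.8, the polarity gene LLGL2 at 10.9 and 14.9, and DSP, which encodes desmoplakin, at 4.22 and 6.16. PATJ, at 4.31 in Ctrl and 3.965 in SOS, was above DSP in Ctrl but ran the other way. DSG2 and TJP1 were thus above ZEB1 in Ctrl (12.9) and below it in SOS (23.9). CLDN3 and PKP3 were listed at 0 in both libraries. F11R, a tight junction adhesion molecule, was past the size rule at 0.421 and 1.86, and it and OCLN, another tight junction gene, at 0.952 and 2.13, entered the comparison through the SOS library alone. ERBB3, a receptor of epithelial cells, was at 2.0 and 3.76, and MUC1, a mucin of the cell surface, at 3.77 and 6.08. Lower were TJP3, at 3.05 and 1.74, CLDN4, at 1.20 and 0.616, and PKP2, at 1.07 and 0.796, of which the last pair entered through the Ctrl library alone. Of 13 genes that oppose EMT 5 were tested, and GRHL2 and ELF5 were listed at 0 in both libraries. Those tested included KLF4 at 5.19 and 5.51, KLF5 at 9.88 and 7.89 and CDX2, an intestinal homeobox factor, at 3.39 and 4.15. Of the catenins that bind cadherin tails, CTNNB1 was at 52.7 and 33.98, CTNNA1 at 92.7 and 80.5 and CTNND1 at 37.9 and 32.8, all 3 below 0 as deposited and 1 of them with SOS scaled to the sum of Ctrl. All 3 lie in the highest quintile of level, where 18.1% of all genes were above 0.

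**Figure D4:**
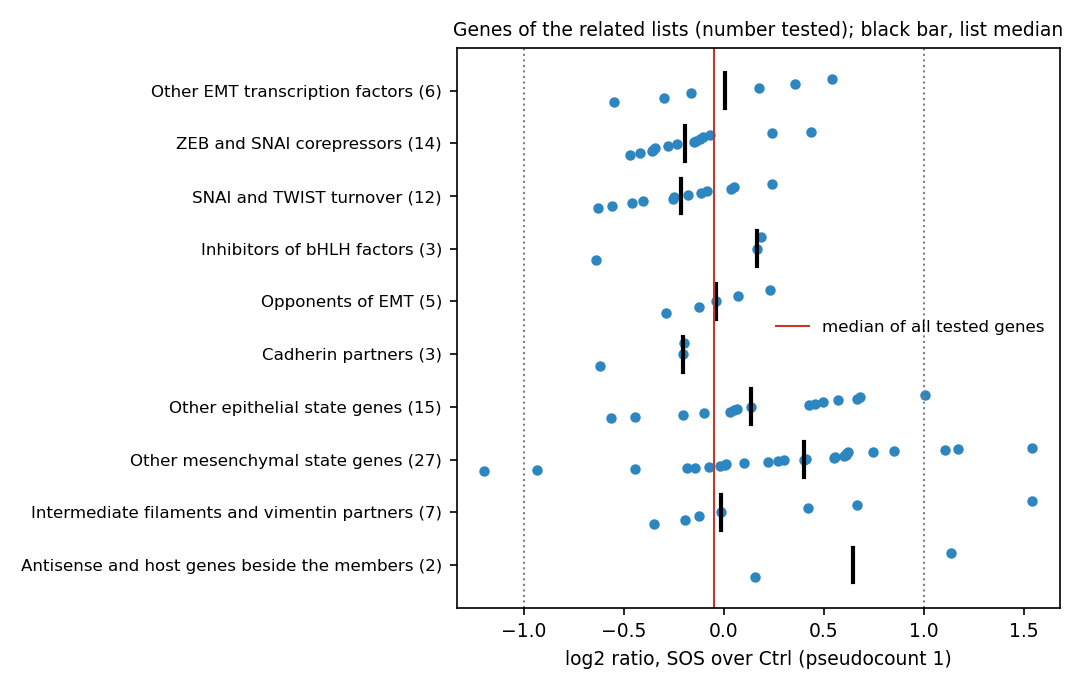
Log2 ratio of SOS over Ctrl for the tested genes of each related list (dots), with the list median (black bar), the median of all tested genes (red line) and the size rule (dotted lines). The mesenchymal list is spread from ACTA2 at -1.20 to LOX at 1.54 with its median at 0.40.

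E-boxes were commoner in the promoters of the epithelial list than in those of the mesenchymal list. Of 18 epithelial genes with an entry 14 hold an E-box in at least 1 window (16 of 29 windows), against 3 of 22 mesenchymal genes (4 of 32 windows) and 24.1% of all genes. Windows of 1 gene can overlap. The promoter of CLDN7 is shown because it holds 5, at -174, -135, -20, -9 and 5 bases from the start site, and because CLDN7 was the only one of the 6 epithelial markers to be tested.
CLDN7, chr17:7262429-7262728 (GRCh38.p14, minus strand): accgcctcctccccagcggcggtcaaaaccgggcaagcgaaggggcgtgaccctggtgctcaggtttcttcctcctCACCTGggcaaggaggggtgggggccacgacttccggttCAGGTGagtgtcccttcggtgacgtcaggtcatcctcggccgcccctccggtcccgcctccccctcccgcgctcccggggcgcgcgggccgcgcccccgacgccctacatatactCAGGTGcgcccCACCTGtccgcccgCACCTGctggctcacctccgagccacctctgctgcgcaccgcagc

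Of 12 intermediate filament genes and vimentin partners 7 were tested. PRPH, which encodes peripherin, a neuronal relative of vimentin, was past the size rule at 12.5 and 38.4, and DES, the desmin gene, was at 0.330 and 1.11. NES, which encodes nestin, was at 31.3 and 27.2, and the crosslinker PLEC at 20.8 and 20.6. LMNA, which encodes the nuclear lamins, was at 348 and 319, NEFL at 2.33 and 3.45 and SYNM at 10.6 and 8.14.

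Over only 2 libraries, likeness to a member means a like level and a like ratio. By the distance between pairs of log2(FPKM + 1) values, the protein-coding gene nearest to ZEB1 was KIAA0895L, at a distance of 0.042, followed by AHNAK2 and TPR. Nearest to ZEB2 were FKBP11, TMX3 and UBE2Q2, the first at 0.0225. Nearest to SNAI1 was SEC24B (0.00345) and to SNAI2 HAUS3 (0.00828). TWIST1 had H1F0 at 0.112, and VIM had no close neighbour, with RPS21 nearest at 0.314.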

How the data were processed

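RNA was sequenced from 1 Ctrl and 1 SOS library. The authors deposited FPKM per gene for each library and, per the file headers, their own log2 ratio, p-value and adjusted p-value. HISAT2, Cufflinks and RSEM with GRCh38.p10 are named in the submitters' processing notes. Their roles and versions, the test behind the p-value and strand handling were not given in the sources used here. No read counts are given, so no depth, interval or floor was computed. The authors' log2 ratio differed from log2 of Ctrl over SOS FPKM by a median of 0.152 over 8976 genes at an FPKM of 5 or more in both, which is the offset removed.

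Of 58233 named entries, 27 with names turned into dates were left out, as were 412 entries without a name. Every value column could be assigned. Ratios used a pseudocount of 1 and genes at an FPKM of 1 or more in Ctrl or SOS. Motifs were counted on both strands for promoters and on the transcript strand for 3' UTRs. Members, lists and the rule for named genes (all members; list members past the size rule, otherwise up to 3 with the highest and 3 with the lowest ratio; short lists and direct partners in full where wanted; the 3 nearest genes) were chosen with earlier results of these data known. Annotation came from GENCODE release 29 (GRCh38), and promoters and miRNAs from RefSeq (GRCh38.p14). Python 3.11.15, numpy 2.4.6, pandas 2.3.3 and matplotlib 3.10.9 were used. Values of some listed genes are not reported here.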

Additional observations from a re-analysis of the deposited data

How the results depend on the processing

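The log2 ratios of ZEB1 (0.69 to 1.18), ZEB2 (0.46 to 0.998), SNAI2 (0.25 to 0.69) and TWIST1 (0.24 to 0.60) stayed positive under all 9 alternatives. Of these, only the authors' ratio could have turned them, and it gave 0.80, 0.53, 0.46 and 0.39. Removal of the offset raised these values by 0.152. As deposited, with Ctrl over SOS, the ratios were -0.64, -0.37, -0.31 and -0.23. Each scaling raised SOS, and the pseudocounts, filters and entry rule cannot change the sign of these genes. ZEB1 passed the size rule with SOS scaled to the sum of Ctrl (1.06) and to that sum without mitochondrially encoded genes (1.18). Under these 2 scalings SNAI1 turned to 0.013 and 0.13 and VIM to 0.22 and 0.35, and VIM also to 0.047 with the median ratio of all genes set to 0. Under the same 2 scalings the list medians turned to 0.016 and 0.14 for cadherin partners, 0.20 and 0.33 for intermediate filaments (0.038 with the median set to 0), 0.10 and 0.18 for opponents of EMT and 0.027 and 0.15 for corepressors, and under the second to 0.11 for turnover genes. CDH2, under an FPKM of 1, turned to 0.00185 under the second. The median for opponents of EMT also turned to 0.037 with no minimum FPKM and to 0.017 by the authors' ratio, and that for other EMT factors to -0.024 with a pseudocount of 5. EPCAM passed the size rule only with a pseudocount of 0.1 (1.05). The medians of the mesenchymal list (0.29 to 0.76), the epithelial list (0.00494 to 0.44) and the ID list (0.08 to 0.51) stayed positive. Against 770 genes past the size rule, a pseudocount of 0.1 gave 1536, a pseudocount of 5 gave 163, a minimum FPKM of 5 gave 399, the authors' ratio gave 1229 and scaling without mitochondrially encoded genes gave 1336. A minimum FPKM of 5 left too few opponents of EMT for a median, and the antisense list had too few tested genes throughout. Removal of PPA2 from the turnover list was chosen after seeing the data. The causes of these moves were not tested. No paired analysis was possible because each group has 1 library. The unknown depth limits CDH1, CDH2, EPCAM and TWIST2 most.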
